A study of Homo sapiens with 5 samples.

Results

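MALAT1, NEAT1, KCNQ1OT1, TUG1, NORAD, GAS5 and SNHG1 are long noncoding RNAs, most of them nuclear, and GAS5 and SNHG1 are also host genes of small nucleolar RNAs (snoRNAs). These 7 of the 60651 genes in the deposited tables were picked by symbol, with results of the same contrast already known. Their own differences between groups are therefore given as a description, and nothing is read from their calls in the test over all genes. Of the 7, 6 passed the filter on low counts, and KCNQ1OT1 did not. Gene-level RNA sequencing was done on COLO 320DM, a human colorectal adenocarcinoma line, after transfection with siRNA, and the series asks how the deubiquitinase USP17 acts in colorectal cancer. The USP17 siRNA group had 3 libraries, labelled siIDT, sino4 and siSMPLT. The control siRNA group had 2 libraries, labelled siL2 and siNT, which are the non-silencing controls of the series. All 5 came from the same line with poly(A) selection, each siRNA had 1 library, and the USP17 group was set by elimination, since the series names only its controls.

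Most of these RNAs work in the nucleus. MALAT1 gathers in nuclear speckles, the stores of splicing factors, and NEAT1 is the scaffold on which paraspeckles assemble; the long form of NEAT1 and MALAT1 end not in a poly(A) tail but in a triple helix that RNase P processing leaves behind. KCNQ1OT1 is an imprinted antisense RNA, TUG1 is a long nuclear and cytoplasmic RNA, and NORAD binds PUMILIO proteins in the cytoplasm. GAS5 and SNHG1 are spliced hosts whose introns yield box C/D snoRNAs, and their mature RNAs are exported, translated little and removed by nonsense-mediated decay.

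The sequences that follow are the features by which these RNAs are known: their ends, their protein sites and their starts. The processed end of MALAT1 and the annotated end of the long NEAT1 form are shown first, with the shared T-rich stretch and the shared A-rich end in capitals; they are 60 bases long, on the plus strand of GRCh38, from GENCODE release 29. That of MALAT1 lies at chr11:65506057-65506116, inside the annotated gene and directly before the tRNA-like RNA at chr11:65506117-65506173, and that of NEAT1 at chr11:65445481-65445540.
MALAT1 end: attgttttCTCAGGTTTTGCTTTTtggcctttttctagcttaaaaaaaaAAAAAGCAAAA
NEAT1 end: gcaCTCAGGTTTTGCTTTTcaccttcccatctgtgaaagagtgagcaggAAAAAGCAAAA
The T-rich stretch is the same 16 bases in both RNAs, and the last 11 bases of both stretches are the same. Directly before these 11 bases MALAT1 has a run of A and NEAT1 has none; how poly(A) selection treated the 2 ends was not tested.

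NORAD is marked by repeated PUMILIO motifs, and 3 of its sites are shown, the lowest numbered, a middle one and the last, with the motif TGTANATA in capitals. They lie on the minus strand of GRCh38 at chr20:36050182-36050211, chr20:36048477-36048506 and chr20:36046344-36046373.
NORAD site 1: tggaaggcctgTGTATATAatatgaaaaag
NORAD site 8: gaataacacttTGTAAATAgcttttaaaaa
NORAD site 15: attagcctattTGTAAATAcctttgttata
The sense strand of the 5339-base NORAD transcript held 15 such sites, and 2 of 9164 other transcripts within 20% of its length held as many. The KCNQ1OT1 transcript, of 91667 bases, held 9, the representative transcripts of NEAT1, TUG1 and SNHG1 held 6, 2 and 1, and those of MALAT1 and GAS5 held 0. The motif was common at these lengths, for 60.6% of transcripts as long as MALAT1 and 10.6% of those as long as GAS5 held it.

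GAS5 and SNHG1 are shown at their starts, since snoRNA hosts often begin with a run of pyrimidines that ties them to growth signals. The start shared by 6 of 29 GAS5 transcripts is at chr1:173867960-173867989 on the minus strand of GRCh38, with its 6 leading pyrimidines in capitals. The SNHG1 window is the RefSeq promoter at chr11:62855836-62856135 on the minus strand of GRCh38.p14, 250 bases before the start in lower case and 50 bases from it in capitals.
GAS5 start: CTTTTCgaggtaggagtcgactcctgtgag
SNHG1 promoter: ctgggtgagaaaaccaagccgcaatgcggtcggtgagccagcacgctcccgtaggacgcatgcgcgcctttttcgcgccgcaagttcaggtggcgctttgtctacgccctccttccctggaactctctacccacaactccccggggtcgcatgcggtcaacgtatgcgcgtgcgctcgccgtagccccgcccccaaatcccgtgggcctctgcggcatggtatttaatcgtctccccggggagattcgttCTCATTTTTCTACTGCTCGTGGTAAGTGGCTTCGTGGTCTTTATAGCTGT
Of the 300 bases, 277 also lie in the RefSeq window of SLC3A2, which starts 224 bases away and runs the other way. Neither window held TGATGNAA or CCAAT on either strand; 3.62% and 34.6% of 35116 RefSeq promoters hold those 2 motifs. RefSeq windows were matched for MALAT1, TUG1, NORAD, GAS5 and SNHG1.

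The siIDT, sino4 and siSMPLT libraries had 7.15%, 7.05% and 7.49% of their reads assigned to no gene, counted by strand, against 6.58% and 6.37% in siL2 and siNT. Where these reads lay was not examined, and they need not lie outside annotated genes. Every USP17 siRNA library lay above both controls, and the means differed by 0.757 percentage points. Reads in genes numbered 31704821 to 36276143 per library. The 30 genes with a USP17L symbol, the family that encodes USP17, had 0 uniquely placed reads in all 5. Reads that map to several places are not in these counts, and RSEM's values for this family were not looked at. The knockdown was therefore not checked at the RNA level, and the 0 does not show that the family was silent. As for the label of the cells, CDX2, a gut transcription factor, was at 1639, 1631 and 1686 CPM (reads scaled to library size) in USP17 siRNA libraries and at 2098 and 2007 CPM in controls, and its fall passed the test (log2 fold change −0.31 ± 0.06, adjusted p = 0.0162). CDH17, an intestinal cadherin, rose by 0.88 ± 0.08 on the same scale (adjusted p = 0.0028), and the other epithelial genes tested, KRT8, KRT18 and EPCAM, did not pass. The 6 epithelial markers summed to 1808 to 1866 CPM in USP17 siRNA libraries and to 2265 and 2190 CPM in controls. CDX2 made up most of that sum in every library, so the sum shows no fall of epithelial markers together. The 5 neuroendocrine markers summed to 5.27 to 7.34 CPM in USP17 siRNA libraries and to 5.43 and 9.51 CPM in controls. EPCAM, an epithelial surface protein, reached only 1.96 to 2.75 CPM over the 5 libraries, VIL1 had 3 to 7 reads, and the neuroendocrine factor INSM1 was at 0. Of 10 markers of blood, stromal, endothelial and liver cells, PTPRC and COL1A1 were measurable and the others had at most 9 reads a library; their summed level was 57.7 to 62.5 CPM in USP17 siRNA libraries and 56.4 and 68.2 CPM in controls.

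MALAT1, NEAT1 and TUG1 were higher in all 3 USP17 siRNA libraries than in both controls, and NORAD, GAS5 and SNHG1 overlapped between the groups. In bulk RNA a change in the number of cells that carry an RNA and a change in its amount per cell cannot be told apart. MALAT1 (chr11:65497688-65506516, plus strand), the speckle RNA, had 410.2, 424 and 479 CPM in the siIDT, sino4 and siSMPLT libraries, against 321 and 316 CPM in siL2 and siNT. The USP17 siRNA libraries averaged 438 ± 36.4 CPM (SD, n = 3) and the controls 318 ± 3.38 CPM (SD, n = 2). The siSMPLT library was the highest, and the lowest USP17 siRNA library was still above either control. The log2 fold change was 0.46 ± 0.08 (standard error), a 1.38-fold difference.

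NEAT1 (chr11:65422774-65445540, plus strand), the paraspeckle scaffold, had 192, 208 and 233 CPM in the siIDT, sino4 and siSMPLT libraries, against 132 and 137 CPM in siL2 and siNT. The libraries stood in the same order as for MALAT1 among the USP17 siRNAs, with siSMPLT highest, and the groups did not overlap. NEAT1 averaged 211 ± 20.5 CPM with USP17 siRNA (SD, n = 3) and 134 ± 3.27 CPM with control siRNA (SD, n = 2). Its log2 fold change, 0.65 ± 0.09, was the largest of the 6 and ranked 847 from the top among 16341 tested genes.

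TUG1 (chr22:30969245-30979395, plus strand) had 372, 379.7 and 391 CPM in the siIDT, sino4 and siSMPLT libraries, against 296 and 301 CPM in siL2 and siNT. Its 3 USP17 siRNA values lay close together and clear of the controls. TUG1 averaged 381 ± 9.54 CPM with USP17 siRNA (SD, n = 3) and 299 ± 3.57 CPM with control siRNA (SD, n = 2), a log2 fold change of 0.35 ± 0.06. Reads counted without regard to strand were fewer than those on its own strand, 10084 against 12148 in the siIDT library; STAR's unstranded count sets aside reads that overlap genes on both strands.

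NORAD (chr20:36045622-36050960, minus strand), the PUMILIO decoy, had 445, 455 and 442 CPM in the siIDT, sino4 and siSMPLT libraries, against 494 and 440.4 CPM in siL2 and siNT. The 2 controls enclosed all 3 USP17 siRNA libraries. NORAD averaged 447 ± 6.78 CPM with USP17 siRNA (SD, n = 3) and 467 ± 37.6 CPM with control siRNA (SD, n = 2), and its log2 fold change was −0.06 ± 0.07. Its direction was set by siL2: without that library the log2 fold change was 0.02.

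GAS5 (chr1:173863900-173868882, minus strand) had 101, 104 and 113 CPM in the siIDT, sino4 and siSMPLT libraries, against 112 and 110.1 CPM in siL2 and siNT. The siSMPLT library lay above both controls and the other two below them. GAS5 averaged 106 ± 6.08 CPM with USP17 siRNA (SD, n = 3) and 111 ± 1.05 CPM with control siRNA (SD, n = 2), a log2 fold change of −0.07 ± 0.08. In TPM, RSEM's abundance per transcript length, GAS5 did not overlap, with 245, 243 and 265 in USP17 siRNA libraries and 267 and 273 in controls.

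SNHG1 (chr11:62851988-62855914, minus strand) had 78.3, 91.5 and 101 CPM in the siIDT, sino4 and siSMPLT libraries, against 82.7 and 109 CPM in siL2 and siNT. The gap between the 2 controls, 0.39 on the log2 scale, was wider than the difference between groups. SNHG1 averaged 90.3 ± 11.4 CPM with USP17 siRNA (SD, n = 3) and 95.7 ± 18.4 CPM with control siRNA (SD, n = 2), with a log2 fold change of −0.08 ± 0.14. Without siNT its log2 fold change was 0.13, and without siL2 it was −0.27.

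KCNQ1OT1 (chr11:2608328-2699994, minus strand), the imprinted antisense RNA, had 2, 1 and 1 reads in siIDT, sino4 and siSMPLT, against 0 in siL2 and siNT. All 5 values lay under the 3 reads that a count of 0 allows, 0.0849 to 0.0938 CPM, so no fold change is given and a difference was not detectable at this depth. RSEM assigned it 4, 4 and 3 expected reads with USP17 siRNA and 3 and 10 with control siRNA, at a TPM of 0 to 2 decimals in every library.

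**Figure D1:**
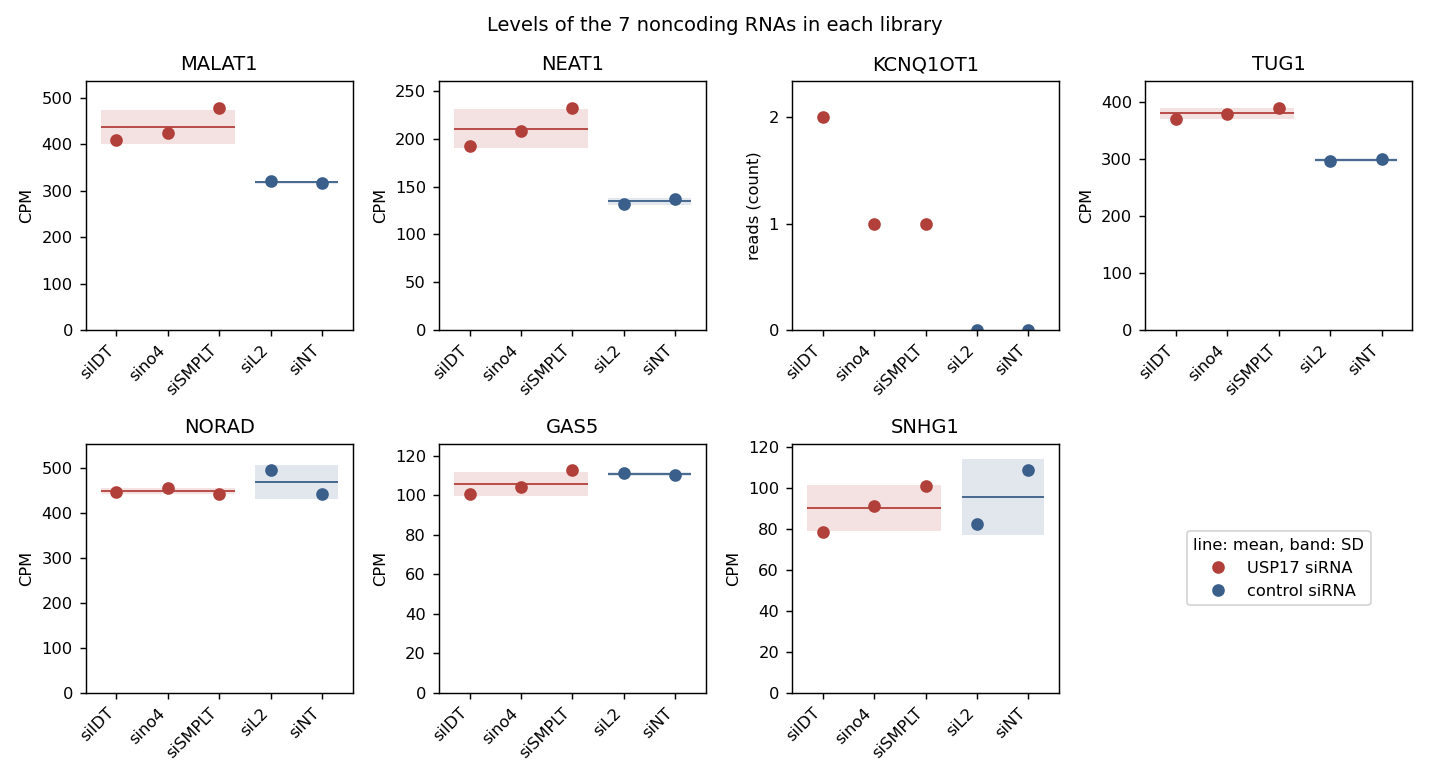
Levels of the 7 RNAs in each library, in CPM on a linear axis from 0 (for KCNQ1OT1, reads). Points are libraries, lines are group means and bands are SD over 3 USP17 siRNA (red) and 2 control siRNA (blue) libraries. MALAT1, NEAT1 and TUG1 show a gap between the groups and NORAD, GAS5 and SNHG1 do not.

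Of the 6 members tested, 3 did not overlap between groups, all of them higher with USP17 siRNA. Over all tested genes 45.9% did not overlap, 23.3% with USP17 siRNA higher and 22.6% with it lower. The same 3 were among the genes called by the fit over all genes (adjusted p under 0.05 by edgeR's quasi-likelihood test), which called 10.5% of all tested genes, 4.64% higher and 5.82% lower. Since the members were chosen with this contrast known, nothing is read from either count, nor from how the calls shifted when a library was left out. The number called was 0 when sino4 was left out and 2 when siIDT was, TUG1 being the one no longer called. The log2 fold changes over 11 alternatives were 0.39 to 0.51 for MALAT1, 0.57 to 0.71 for NEAT1 and 0.33 to 0.37 for TUG1.

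**Figure D2:**
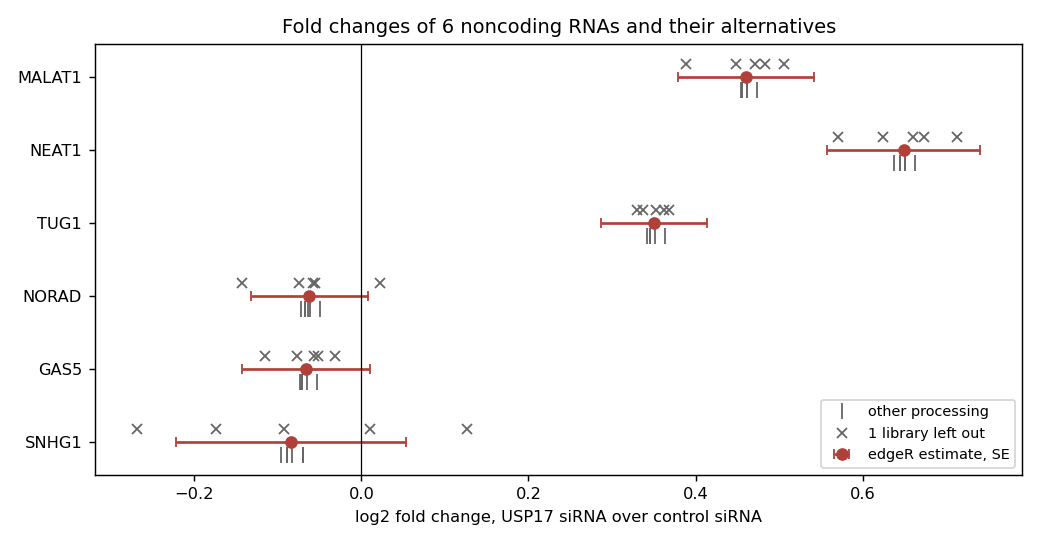
Log2 fold change, USP17 siRNA over control siRNA, of the 6 tested RNAs. Circles with bars give the estimate and its standard error, crosses the values with 1 library left out and ticks those under other processing; MALAT1, NEAT1 and TUG1 stay above 0 throughout, and NORAD and SNHG1 fall on both sides of it.

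On the scale of TPM, which allows levels of different genes to be compared, the order with USP17 siRNA was GAS5 (251 ± 11.9), MALAT1 (241 ± 13.6), NORAD (181 ± 1.56), NEAT1 (154 ± 15.6), SNHG1 (121 ± 12.9) and TUG1 (109 ± 1.17; SD, n = 3 each). GAS5 and MALAT1 overlapped there, as did SNHG1 and TUG1, and the other neighbours in the order did not. With control siRNA the order was GAS5 (269.7 ± 3.97), NORAD (187 ± 14.8), MALAT1 (173 ± 14.6), SNHG1 (128 ± 27.9), NEAT1 (99.8 ± 2.04) and TUG1 (84.2 ± 1.94; SD, n = 2 each). NORAD and MALAT1 overlapped in that group, and no other neighbours did. Both orders depend on RSEM's estimated transcript lengths. MALAT1 had 162 and 183 TPM in siL2 and siNT at 321 and 316 CPM, with estimated lengths of 2976 and 2623 bases. How poly(A) selection acted on each RNA was not tested. The 7 RNAs together took 0.162%, 0.167% and 0.177% of reads in genes in the siIDT, sino4 and siSMPLT libraries, against 0.143% and 0.138% in siL2 and siNT.

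RSEM also gave a mean transcript length per gene, weighted by the abundance of its isoforms. For NEAT1 it was 2388, 2468 and 2424 bases in the siIDT, sino4 and siSMPLT libraries, against 2333 and 2369 bases in siL2 and siNT. These values lie far below the 22743 bases of the long paraspeckle form and did not overlap between the groups. The libraries were poly(A)-selected and the long form does not end in a poly(A) tail, so these lengths cannot show how abundant it was. The GAS5 mean was 699, 701 and 706 bases in USP17 siRNA libraries, against 686 and 674 bases in controls, again without overlap. MALAT1 (2695 to 2880 bases with USP17 siRNA, 2976 and 2623 with control siRNA), TUG1 and SNHG1 overlapped, and NORAD was listed at 5401 bases in every library. These are estimates from short reads, and they do not say whether any isoform changed. How often mean lengths do not overlap over all genes was not computed. Nothing is therefore read from the lack of overlap for NEAT1 and GAS5.

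How reads were assigned mattered for some members more than for others. RSEM, which shares out reads that map to several places, gave NORAD 1.44 to 1.45 times the uniquely placed reads and NEAT1 1.14 to 1.16 times, and MALAT1 at least 0.998 times. Reads on the opposite strand came to at most 1.40% of those on both strands together for MALAT1, 1.13% for NEAT1 and 0.875% for SNHG1, and to 1.87% or more in every library for GAS5, which overlaps annotated antisense genes. The log2 fold changes from RSEM's expected counts were 0.46 for MALAT1, 0.65 for NEAT1 and 0.34 for TUG1.

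Noncoding genes as a class took a slightly larger share of reads with USP17 siRNA. Without the 7 members, 6 long noncoding classes held 1.29%, 1.26% and 1.33% of reads in genes in the siIDT, sino4 and siSMPLT libraries, against 1.24% and 1.20% in siL2 and siNT. These shares moved the same way between the groups as the reads assigned to no gene and as MALAT1, NEAT1 and TUG1. The part of these shares in those differences was not tested. By class, with members included, antisense genes overlapped between the groups (0.438% in sino4, 0.446% in siL2) and the other long noncoding classes did not. Of these, the lincRNA class holds MALAT1, NEAT1 and NORAD. TUG1 lies in the bidirectional promoter class, and GAS5 and SNHG1 in the processed transcript class. Shares of single classes without the members were not computed, so nothing is read from the lack of overlap in these classes. Of 2347 long noncoding genes tested, members included, 88 (3.75%) were higher and 33 (1.41%) lower at an adjusted p under 0.05. Their median log2 fold change was 0.09. Of 12539 protein-coding genes 643 (5.13%) were higher and 905 (7.22%) lower, with a median of −0.01. Among the 57 other long noncoding genes whose log2 CPM was 5 or more, 6 (10.5%) were higher and 7 (12.3%) lower with a median of 0.04. That limit was chosen after values were seen. Of 6333 protein-coding genes at that level 5.89% were higher and 9.55% lower.

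**Figure D3:**
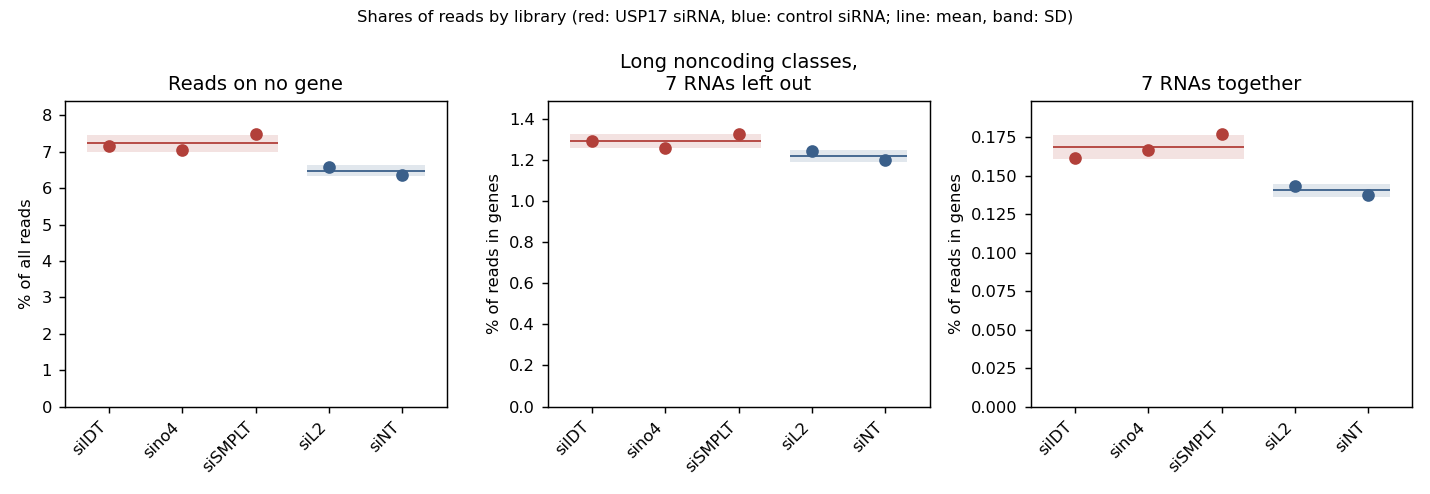
Share of all reads assigned to no gene, and shares of reads in genes taken by 6 long noncoding classes without the 7 RNAs and by the 7 RNAs together, in % on axes from 0. Points are libraries, lines group means and bands SD over 3 USP17 siRNA (red) and 2 control siRNA (blue) libraries; in each panel the USP17 siRNA libraries lie above the controls, by 0.757 percentage points on average in the left one.

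No reads were counted on the snoRNA rows inside SNHG1, and no snoRNA row was found within GAS5 in GENCODE release 29. The 7 snoRNA rows within SNHG1, SNORD25 to SNORD28, SNORD30, SNORD22 and an unnamed one, had 0 reads in every library on either strand. The libraries were poly(A)-selected, so these counts cannot show whether the snoRNAs were present. Elsewhere in the genome 24 snoRNA genes passed the filter on low counts, and 0 of them were called. Of 28 other noncoding snoRNA hosts listed 24 were tested, and of these 0 were higher and 3 lower; 1 was higher and 4 lower at an unadjusted p under 0.05, and DESeq2 gave 1 higher and 3 lower. Over all tested genes 14.2% were higher and 14.7% lower at an unadjusted p under 0.05, and 4.64% and 5.82% at an adjusted p under 0.05. The counts at either p given here and for the other lists are to be read beside these shares. SNHG16 had 159, 137 and 148 CPM in USP17 siRNA libraries, against 199 and 197 CPM in controls (log2 fold change −0.42 ± 0.08, adjusted p = 0.0177). The others that fell were SNHG7 (−0.42 ± 0.10, adjusted p = 0.0318) and DANCR (−0.32 ± 0.08, adjusted p = 0.0406). The median over the 24 was 0.05, beside 0.01 over all tested genes.

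Among 27 coding hosts, which carry snoRNAs in the introns of protein genes, 1 rose and 1 fell. TPT1, an abundant growth-linked protein of the class with pyrimidine-rich starts, had a log2 fold change of 0.29 ± 0.06 (adjusted p = 0.0270), and TBRG4, a mitochondrial RNA regulator, one of −0.38 ± 0.07 (adjusted p = 0.0185). Of 18 snoRNP proteins, 0 rose and 2 fell, with a median log2 fold change of −0.14; at an unadjusted p under 0.05 the counts were 0 and 6. NOLC1, a chaperone of snoRNP assembly, had 397, 399 and 434 CPM in USP17 siRNA libraries, against 554 and 527 CPM in controls (log2 fold change −0.40 ± 0.07, adjusted p = 0.0142). RUVBL1, an ATPase of the same assembly path, fell by 0.31 ± 0.07 on the log2 scale (adjusted p = 0.0261).

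Of 37 other long noncoding RNAs listed 27 were tested, and of these 5 rose and 0 fell, with 9 higher and 3 lower at an unadjusted p under 0.05 and 5 higher and 0 lower by DESeq2. HOTAIR, transcribed from the HOXC cluster, had 52.0, 52.5 and 54.2 CPM in USP17 siRNA libraries, against 29.9 and 30.4 CPM in controls (log2 fold change 0.81 ± 0.08, adjusted p = 0.0030). FTX, a noncoding neighbour of the X-inactivation centre, rose by 0.94 ± 0.13 (adjusted p = 0.0069). OIP5-AS1, the conserved RNA also called Cyrano, rose by 0.32 ± 0.07 (adjusted p = 0.0288), and DLEU2 and CHASERR were the others. The median log2 fold change over the list, 0.06, was near that of all tested genes.

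Speckles and paraspeckles, the bodies of MALAT1 and NEAT1, are built with proteins that were looked at next. Of 22 speckle and splicing proteins 3 rose and 0 fell, with a median log2 fold change of 0.21. At an unadjusted p under 0.05, 13 were higher. With USP17 siRNA higher, 14 did not overlap between groups, beside 23.3% of all tested genes. SRSF6, a splicing regulator, had 158, 165 and 148 CPM in USP17 siRNA libraries, against 114 and 109 CPM in controls (log2 fold change 0.50 ± 0.08, adjusted p = 0.0108). SON, the core of the speckle, rose by 0.24 ± 0.06 (adjusted p = 0.0416) and TRA2A, a splicing activator, by 0.37 ± 0.10 (adjusted p = 0.0470). DESeq2 called 7 of the 22, all higher, and no difference between this list and others was tested.

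None of 17 paraspeckle proteins passed the threshold, by edgeR or by DESeq2; at an unadjusted p under 0.05, 2 were higher and 0 lower. NONO and SFPQ, the paired core proteins that hold NEAT1, had log2 fold changes of 0.07 ± 0.06 and 0.06 ± 0.06. Of 17 genes for RNase P and m6A, which process the MALAT1 and NEAT1 ends or modify these RNAs, 0 passed by either tool and 2 were lower at an unadjusted p under 0.05; the smallest p was that of RPP14, an RNase P subunit, at −0.35 ± 0.12 (adjusted p = 0.0997).

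NORAD's partners gave no call. Of 8 genes, 0 passed by edgeR or DESeq2 and 0 had an unadjusted p under 0.05, with log2 fold changes from −0.11 to 0.10. PUM2, a PUMILIO protein that binds its repeated sites, had a log2 fold change of 0.05 ± 0.06. ALYREF, an export adaptor, had the smallest p (−0.11 ± 0.07, adjusted p = 0.350).

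Of 15 factors of nonsense-mediated decay, which degrades the mature RNAs of snoRNA hosts, 1 rose and 2 fell. SMG1, the kinase of UPF1, rose by 0.27 ± 0.07 (adjusted p = 0.0414), while CASC3, of the exon junction complex, fell by 0.44 ± 0.09 on the log2 scale (adjusted p = 0.0195). Of 19 genes of the nuclear exosome and its cofactors, 0 rose and 2 fell: EXOSC7, a ring subunit, by 0.46 ± 0.09 (adjusted p = 0.0173) and ZCCHC7, of the TRAMP complex, by 0.44 ± 0.11 (adjusted p = 0.0364). All these lists were drawn up with earlier results of these data known. In all 20 list genes were past the threshold, and 4 were without siIDT and 1, HOTAIR, without sino4.

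**Figure D4:**
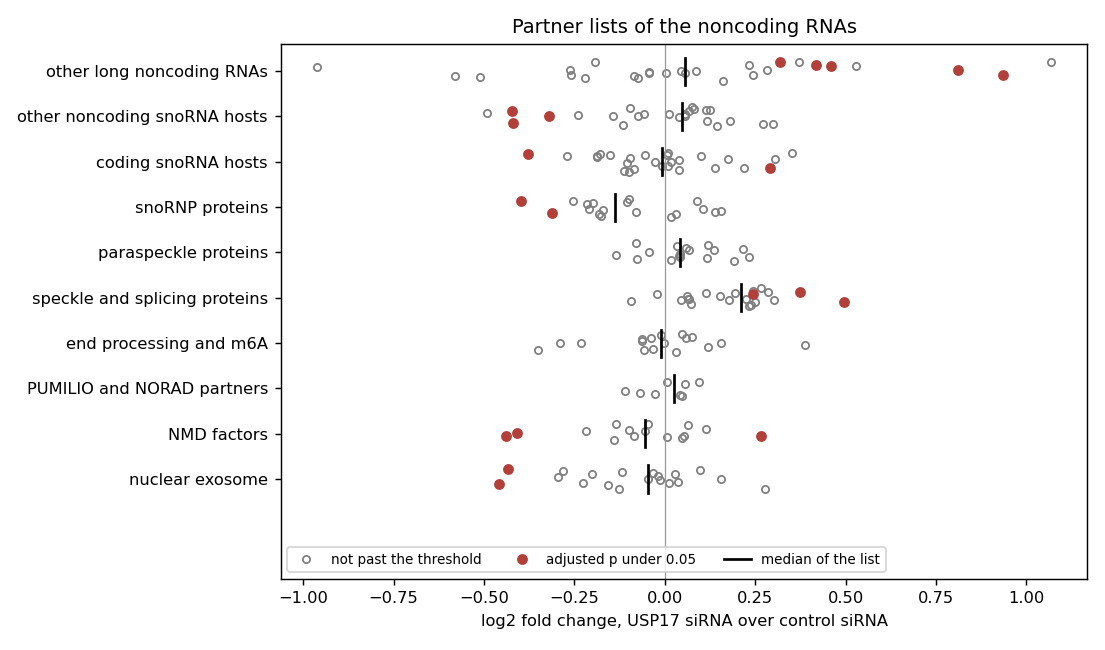
Log2 fold change, USP17 siRNA over control siRNA, of every tested gene of 10 lists of related RNAs and partner proteins. Filled points passed an adjusted p of 0.05, open points did not, and the black bar is the median of the list; it lies furthest to the right for speckle and splicing proteins, at 0.21, and furthest to the left for snoRNP proteins, at −0.14.

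Neighbouring genes were compared next, because TUG1, GAS5 and SNHG1 each face a gene on the other strand. Of 16 tested genes within 50 kb of a member, 3 rose and 3 fell, with a median log2 fold change of −0.07. The shares called over all tested genes were 4.64% higher and 5.82% lower, and no difference from them was tested. SLC3A2, the heavy chain of amino acid transporters, lies 187 bases from SNHG1 in GENCODE release 29 and had 86.4, 102 and 96.0 CPM in USP17 siRNA libraries, against 125 and 181 CPM in controls (log2 fold change −0.69 ± 0.15, adjusted p = 0.0240). The siNT library was the highest for both SNHG1 and SLC3A2. The log2 fold change of SLC3A2 was −0.94 without siL2 and −0.40 without siNT, and its call was lost without siIDT, sino4 or siSMPLT.

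ZBTB37, a zinc finger gene that overlaps GAS5 on the opposite strand, had 45.3, 42.7 and 40.4 CPM in USP17 siRNA libraries, against 25.9 and 25.0 CPM in controls (log2 fold change 0.75 ± 0.09, adjusted p = 0.0047). GAS5 itself had no such gap. MORC2, of the HUSH silencing path, lies 946 bases from TUG1 and had 107, 98.0 and 89.4 CPM in USP17 siRNA libraries, against 84.3 and 73.5 CPM in controls (log2 fold change 0.32 ± 0.10, adjusted p = 0.0815). LTBP3, a TGF-beta binding protein near MALAT1, rose by 0.47 ± 0.10 (adjusted p = 0.0214), and NXF1, the mRNA export receptor near SNHG1, rose by 0.45 ± 0.10 (adjusted p = 0.0269). EPB41L1, a cytoskeletal protein near NORAD, fell by 0.38 ± 0.08 (adjusted p = 0.0206), and CENPL, a centromere protein near GAS5, fell by 0.34 ± 0.09 (adjusted p = 0.0484) on the log2 scale. Of the 6, ZBTB37 alone was past the threshold both without siIDT and without sino4.

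Some calls among list genes and neighbours were also lost under other settings. With no filter on low counts SON, TRA2A, DANCR, DLEU2 and CENPL were no longer called, with RSEM's expected counts TRA2A, DANCR and CHASERR among others, and with unstranded counts DLEU2. Leaving out siSMPLT removed the calls of SON, TRA2A, SMG1, ZCCHC7, RUVBL1, OIP5-AS1, DLEU2, SLC3A2, LTBP3, EPB41L1 and CENPL. Leaving out siNT removed those of TRA2A, DANCR, SNHG7, ZCCHC7, NXF1 and CENPL, and leaving out siL2 those of SMG1, CHASERR and DLEU2 among others. The log2 fold change of ZCCHC7 was −0.28 without siNT. HOTAIR and ZBTB37 stayed called under all 11 alternatives.

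**Figure D5:**
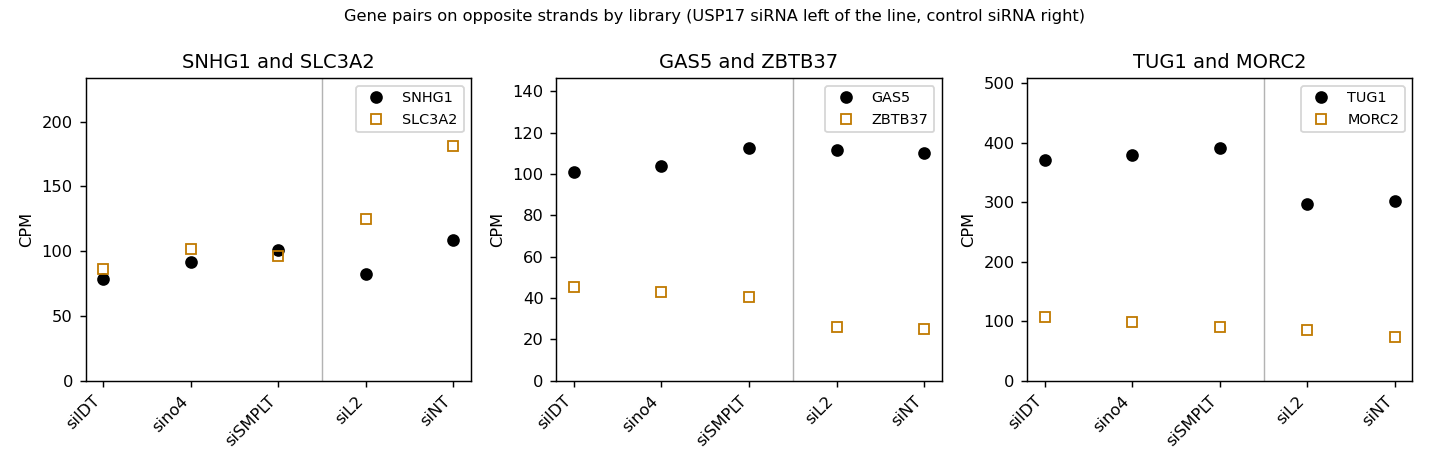
CPM by library, on linear axes from 0, of SNHG1, GAS5 and TUG1 (filled circles) and of the gene each faces on the other strand (open squares), with USP17 siRNA libraries left of the line and control siRNA libraries right of it. SLC3A2 is lower and ZBTB37 higher with USP17 siRNA, while SNHG1 and GAS5 overlap between the groups.

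The profiles of the members over the 5 libraries were set beside those of 9797 genes whose log2 CPM was 3 or more, by the Euclidean distance of centred log2 CPM. The closest members were NORAD and GAS5 and, next, MALAT1 and TUG1, each pair 0.17 apart, followed by MALAT1 and NEAT1 at 0.22. The profiles of NORAD and GAS5 each lay only 0.14 from a flat profile, less than the distance between them. That pair was therefore close because both varied little. MALAT1 and TUG1 lay 0.53 and 0.39 from a flat profile. The farthest members were NEAT1 and SNHG1 at 0.83. The nearest genes to MALAT1 were RNF207, ASB16-AS1 and CTC1 at 0.04 to 0.07, and those to NEAT1 were LRRC37A4P, TSPAN8 and HEXIM1 at 0.09 to 0.16. CEP95, AP1G2 and MUC20-OT1 were nearest to TUG1 at 0.01 to 0.05; GMNN, CCDC12 and RPL14 to NORAD at 0.02 to 0.03; ABCF2, EYA4 and BBS10 to GAS5 at 0.02 to 0.04. KAZALD1, KCNK5 and USP39 were nearest to SNHG1 at 0.09. With 5 libraries such closeness is a description only.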

How the data were processed

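Per the labels' protocols, poly(A)-selected libraries were made with a KAPA kit. Per the submitters' processing notes, bcl2fastq 2.20, STAR 2.7.1a and RSEM 1.3.2 were used with GRCh38; not given in the sources used here is the annotation release. The authors deposited whole-number read counts per gene in STAR's layout, and RSEM expected counts and TPM; other RSEM columns deposited by the authors, such as mean lengths, are in bases. The column of the gene's own strand was used. Summary rows, 22.8% to 24.4% of all reads, entered neither library sizes nor tests.

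The fit across all genes used edgeR 4.0.16 in R 4.3.3: filterByExpr (minimum count 10, minimum total 15), TMM, the quasi-likelihood F test, two-sided, and Benjamini-Hochberg adjustment at 0.05 over 16341 genes, tested on simulated data with known fold changes. Standard errors are the log2 fold change over the square root of F. Log2 CPM used a prior count of 2. Alternatives were DESeq2 1.42.0 (size factors, Wald test), no filter, RSEM expected counts rounded to whole numbers, unstranded counts, other library sizes and leaving out each library. Whether the libraries came from separate cultures is not stated; p-values cover only their spread, which may be technical, and each siRNA's own effects. Intervals from a count of 0 cover counting error only.

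The members and lists were chosen with earlier results of these data known. Named genes were the members, up to 3 passing genes per list with the smallest p (otherwise the single smallest), the 3 nearest profiles per member and the genes within 50 kb; SNORD rows, NONO, SFPQ, PUM2, DLEU2, CHASERR, EPCAM, VIL1, INSM1 and PTPRC were named outside this rule, after their values were seen. Some genes under the rule are not reported here. Symbols were matched for 60437 of 60651 identifiers, and 58405 are in GENCODE release 29, from which coordinates and transcripts were taken.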

Additional observations from a re-analysis of the deposited data

How the results depend on the processing

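The count of genes past the threshold, 1710, was 1479 to 2342 under 6 other processings, and the 20 list genes past it were 16 to 27. Leaving out 1 library moved the counts further: 130 to 2633 genes, with 130 when sino4, 349 when siIDT, 1041 when siSMPLT, 2430 when siL2 and 2633 when siNT was dropped, and 1 to 28 list genes (4 without siIDT and 1 without sino4). Without siL2 or siNT a single control is left, the spread comes from the USP17 siRNA libraries alone and the control is assumed to vary like them; the cause of the shifts was not tested. The log2 fold change of NORAD ranged from −0.14 without siNT to 0.022 without siL2. The number of members that did not overlap between groups ranged from 3 to 5, with 5 without siL2, and it was 4 in TPM. With a single control left, a lack of overlap comes more easily. The shares of all genes without overlap under these settings were not computed, so nothing is read from these counts. MALAT1, NEAT1, TUG1 and GAS5 kept their direction under the 11 alternatives run, SNHG1 and NORAD did not. Speckle and splicing proteins past the threshold numbered 7 by DESeq2's test, 5 with library sizes from all reads and 1 without a filter, against 3. No paired analysis was possible because the replicate numbers only name the samples and pair no libraries. Among the members, KCNQ1OT1 alone had too few reads for a comparison, and the reason was not tested.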
